A study of Mus musculus with 4 samples.

Results

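Pyruvate carboxylase (Pcx) and 5 genes of glyceroneogenesis and glycerol handling (Pck1, Pck2, Gpd1, Gpd2 and Aqp7) were examined in mouse DFAT cells. DFAT cells are the fibroblast-like cells that mature fat cells turn into when they lose their lipid in culture. The members were all probe sets whose only platform gene symbol was 1 of these 6 symbols, 16 in number, plus the 4 control probe sets for mouse pyruvate carboxylase, out of 45101 probe sets on the array. The genes were chosen from the measured log2 differences between these arrays, Pcx for its higher signal in both treated cultures, so the differences below are descriptions. Total RNA was hybridised to 4 single-colour Affymetrix arrays, with 1 array a group. The cells had been given Y-27632, which blocks the ROCK kinases and so relaxes contractile actin fibres, or DMSO, a common solvent for such compounds, or had been transfected with Mkl1 siRNA or with Control siRNA. Mkl1 (listed as Mrtfa) encodes an actin-regulated coactivator of the transcription factor SRF. All were grown in DMEM with serum, and no genotype, age, dose or duration is given in the labels used here. With 1 array a group no difference has a replicate check and no p-value can be given.

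Pyruvate carboxylase is the biotin-dependent mitochondrial enzyme that turns pyruvate into oxaloacetate. In fat cells the oxaloacetate feeds citrate and NADPH supply for fatty acid synthesis, and also glyceroneogenesis, the making of glycerol 3-phosphate from pyruvate rather than from glucose. In glyceroneogenesis phosphoenolpyruvate carboxykinase (cytosolic Pck1, mitochondrial Pck2) makes phosphoenolpyruvate from oxaloacetate, and the cytosolic dehydrogenase Gpd1 makes glycerol 3-phosphate from dihydroxyacetone phosphate. Gpd2 is the mitochondrial dehydrogenase that oxidises glycerol 3-phosphate back, and Aqp7 is the channel through which glycerol leaves fat cells. Pck1, Gpd1 and Aqp7 are known as genes of differentiated fat cells.

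The upstream windows of Pcx are shown because it had the largest difference of the 6 genes, and that of Aqp7 because it held the nuclear receptor element named next. RefSeq (GRCm38.p6) gave a window for 5 of the 6 genes. In rats the pyruvate carboxylase gene is known to have a proximal promoter used in liver and fat and a distal promoter used elsewhere. RefSeq lists 2 mouse Pcx start sites that lie 83847 bases apart. The 250 bases before each were searched on both strands for AGGTCA (an element bound by nuclear receptors), the direct repeat AGGTCANAGGTCA of that element, the box CCAAT, the GC box GGGCGG, the TATA box TATAAA and the E box CACGTG. The repeat holds AGGTCA, so its matches would count under both. Capitals mark every match, and each sequence runs 5′ to 3′ on the gene's strand.
Pcx upstream start, chr19:4510222-4510471 (+): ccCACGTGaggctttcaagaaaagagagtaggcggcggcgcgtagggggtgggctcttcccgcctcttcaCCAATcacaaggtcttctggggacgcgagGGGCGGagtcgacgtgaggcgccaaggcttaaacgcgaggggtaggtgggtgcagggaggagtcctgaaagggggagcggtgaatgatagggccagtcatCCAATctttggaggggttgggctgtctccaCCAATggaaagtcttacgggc
Pcx downstream start, chr19:4594069-4594318 (+): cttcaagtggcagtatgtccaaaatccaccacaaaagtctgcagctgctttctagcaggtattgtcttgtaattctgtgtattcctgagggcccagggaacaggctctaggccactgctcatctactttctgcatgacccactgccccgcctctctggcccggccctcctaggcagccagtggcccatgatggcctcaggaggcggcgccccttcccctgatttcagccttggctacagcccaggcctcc
Aqp7 start nearest the gene body, chr4:41047963-41048212 (-): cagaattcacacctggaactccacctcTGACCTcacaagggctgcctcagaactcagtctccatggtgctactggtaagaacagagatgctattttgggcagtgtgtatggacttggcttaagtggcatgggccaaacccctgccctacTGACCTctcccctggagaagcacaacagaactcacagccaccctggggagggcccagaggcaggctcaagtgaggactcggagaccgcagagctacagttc
The upstream Pcx window held 3 CCAAT matches, 1 GC box and 1 E box, while the downstream Pcx window held none of the 6 motifs. The Aqp7 window held AGGTCA in reverse (TGACCT) 2 times. Among 32851 windows of the same length, 33.8% held CCAAT, 32.7% the GC box, 6.02% the E box, 14.0% AGGTCA, 12.4% TATAAA and 0.0335% the direct repeat. A match is a run of letters only, and which Pcx start site the signals come from was not tested.

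Mrtfa, the siRNA target, had a log2 signal of 7.70 with Mkl1 siRNA, against 8.55 with Control siRNA. Of 9 fibroblast and preadipocyte markers, 7 (among them Pdgfra, Thy1, Col1a1 and Vim) had log2 signals of 11.18 to 14.51 on the 4 arrays. The preadipocyte markers Dlk1 (5.98 to 6.25) and Cd34 (3.53 to 6.36) lay near or below the median of all values (5.69). Of the macrophage, endothelial and hepatocyte markers, 3 of 7, 1 of 7 and 1 of 6 reached that median on at least 1 array. These were Cd14 (7.28 to 7.98), Lyz2 (5.89 to 6.73), Csf1r (6.38 to 6.45), Kdr (5.58 to 5.79) and Ttr (5.99 to 6.30). The defining genes Ptprc, Pecam1 and Alb lay between 3.33 and 4.83. The median difference over 11600 analysed genes was close to 0 in each comparison. Between the control arrays the median absolute difference was 0.172.

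Pcx was higher in both treated cultures. Its gene probe set (1416383_a_at) had a log2 signal of 10.33 with Y-27632, against 8.47 with DMSO, a difference of 1.86 or 3.63-fold. With Mkl1 siRNA the signal was 10.74, against 8.60 with Control siRNA, a difference of 2.14 or 4.40-fold. Both treated arrays lay above both control arrays, which differed from each other by 0.13. Only 41 of 11600 genes (0.353%) were as high or higher relative to DMSO with Y-27632, and 34 (0.293%) relative to Control siRNA with Mkl1 siRNA. Against the other control array the Pcx difference was 1.73 for Y-27632 and 2.27 for Mkl1 siRNA. These are bulk samples, in which a larger share of fat-like cells and more Pcx RNA per cell cannot be told apart.

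**Figure D1:**
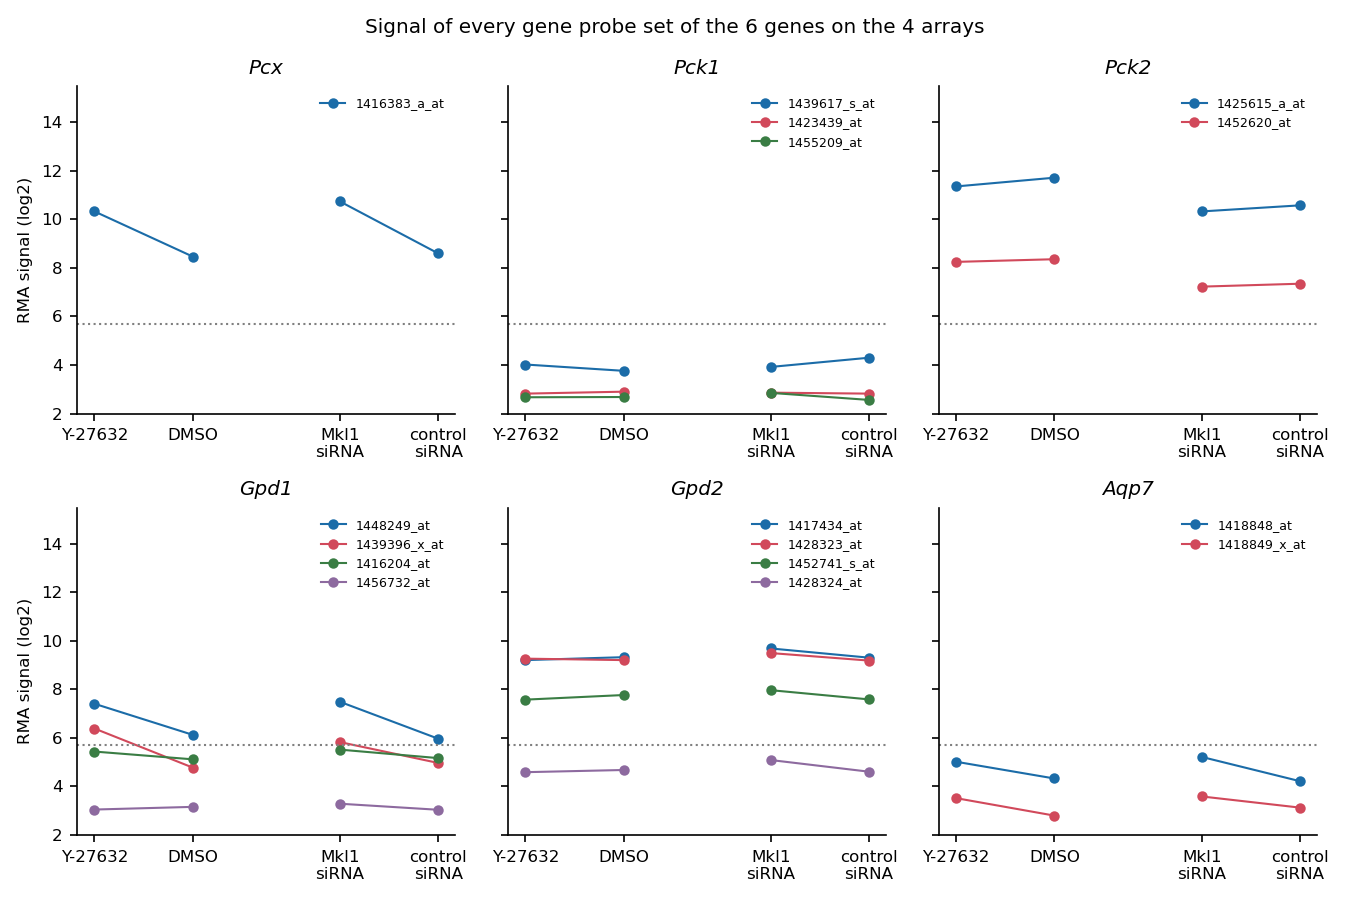
RMA signal (log2) of each gene probe set of the 6 genes on the 4 arrays, 1 point an array and 1 panel a gene; lines join each treated array to its own control and the dotted line is the median of all values (5.69). Pcx stands at 10.33 and 10.74 on the treated arrays, against 8.47 and 8.60 on their controls, and all Pck1 and Aqp7 probe sets lie below the dotted line.

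The 4 control probe sets for pyruvate carboxylase, named for the 5′ end, 2 middle stretches (A and B) and the 3′ end of the mouse transcript, did not share this difference equally. The 3′ set had log2 signals of 10.16 with Y-27632, against 8.39 with DMSO, and 10.60 with Mkl1 siRNA, against 8.5 with Control siRNA, differences of 1.77 and 2.10. The middle B set had 6.29 with Y-27632, against 5.48 with DMSO, and 6.72 with Mkl1 siRNA, against 5.77 with Control siRNA, differences of 0.81 and 0.95. For these sets the treated arrays again lay above both controls, with the 3′ set close to the gene probe set in its differences. The 5′ set had 7.08 with Y-27632, against 6.95 with DMSO, and 7.31 with Mkl1 siRNA, against 6.98 with Control siRNA, differences of 0.13 and 0.33. The middle A set had 6.53 with Y-27632, against 6.45 with DMSO, and 6.71 with Mkl1 siRNA, against 6.49 with Control siRNA, differences of 0.08 and 0.22. All 4 control sets were thus on the higher side in both comparisons, and 1 of the 4, the 3′ set, was past 2-fold. The 5′ and middle A sets had signals at the 59.5th to 67.9th percentile of all probe sets on the 4 arrays.

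The difference at the 3′ set minus that at the 5′ set was 1.64 for Y-27632 and DMSO and 1.77 for Mkl1 siRNA and Control siRNA, but 0.07 between the control arrays. The same quantity was computed for the other 21 control series with probe sets at both ends of a transcript, of which several bacterial ones read the same transcript as another. It ran from -0.27 to 0.31 with Y-27632 relative to DMSO (median -0.02) and from -0.38 to 0.14 with Mkl1 siRNA relative to Control siRNA (median -0.03), and from -0.15 to 0.62 between the control arrays. For Actb, the cytoplasmic actin of non-muscle cells, it was 0.26 and 0.14, and for Gapdh, a glycolytic enzyme, 0.04 and 0.03. For 18S ribosomal RNA it was -0.11 and 0.07, while the transferrin receptor control sets lay between 2.95 and 3.77 on all arrays, near the lowest values in the table. The 9 Bacillus series ran from -0.27 to 0.31 and from -0.38 to 0.06, and the 8 hybridisation controls from -0.09 to 0.08 and from -0.12 to 0.06. The 9 Bacillus and 8 hybridisation series are not RNA of the cells. They cannot show how the ends of the cells' own transcripts differ. None of the 21 series reached the end difference of pyruvate carboxylase in either treatment comparison. Their 3′ sets were higher by at most 0.31 with Y-27632 and 0.34 with Mkl1 siRNA, so they had little room for one as wide. How far the ends of a transcript with a larger rise would differ cannot be read from them. Where the probes lie on the transcript, and whether they bind all Pcx transcripts, was not tested.

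**Figure D2:**
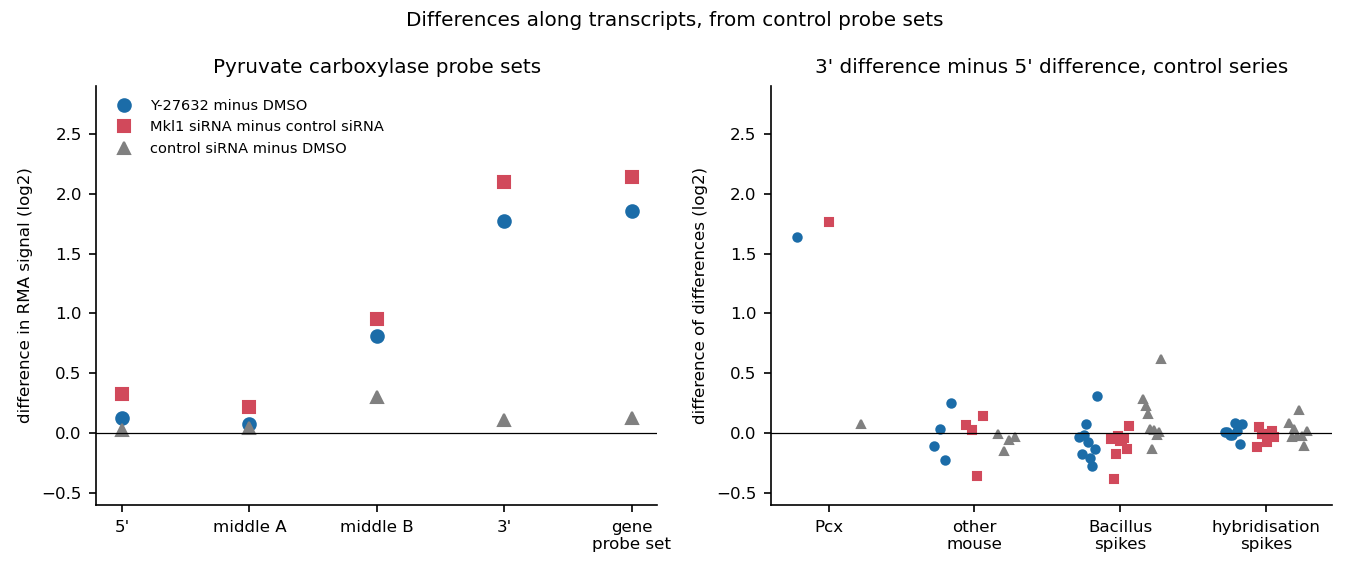
Left, difference in RMA signal (log2) at the 4 pyruvate carboxylase control probe sets and at the gene probe set in 3 comparisons; right, 3′ difference minus 5′ difference (log2) for each control series. Pyruvate carboxylase stands at 1.64 and 1.77 in the treatment comparisons, and there the other 21 series lie between -0.38 and 0.31.

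Genes with several probe sets gave a further scale for this. Of 5273 such genes with at least 2 probe sets past the filter, the gap between the highest and lowest difference had a median of 0.17 for Y-27632 relative to DMSO, and of 0.21 for Mkl1 siRNA relative to Control siRNA. Most of these genes differed little and could show no wide gap. The genes with a probe set at least 2-fold higher are a closer comparison, though those just past it have little room for such a gap. Of 70 such genes with Y-27632, 5 (7.14%) had a gap of at least 1.64, and of 118 with Mkl1 siRNA, 5 (4.24%) had a gap of at least 1.77. In 17 of the 70 (24.3%) and 43 of the 118 (36.4%) another probe set of the gene had a signed log2 difference below 0.5. Probe sets that were lower than the control are thus counted with those that differed little. The gap is highest minus lowest over a gene's probe sets, whereas the Pcx value is the 3′ set minus the 5′ set. Pcx was chosen for its difference, so these shares describe the scale of such gaps only.

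Gpd1, the enzyme that makes glycerol 3-phosphate for triglyceride, was the other member past both the filter and 2-fold. On its strongest probe set (1448249_at) it had a log2 signal of 7.41 with Y-27632, against 6.13 with DMSO, a difference of 1.28 or 2.43-fold. With Mkl1 siRNA it had 7.49, against 5.97 with Control siRNA, a difference of 1.52 or 2.86-fold. Both treated arrays lay above both controls, which differed by -0.15. A second probe set (1439396_x_at) had 6.39 with Y-27632, against 4.78 with DMSO, and 5.83 with Mkl1 siRNA, against 4.97 with Control siRNA, differences of 1.60 and 0.86. The other two had signals of 5.52 or less on all arrays and differences of -0.10 to 0.35. As a mean over its 4 probe sets Gpd1 differed by 0.77 and 0.75, short of 2-fold.

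Pcx and Gpd1 were thus 2 of the 4 members that passed the filter (highest array at or above 5.69) and were at least 2-fold higher in each treatment comparison. Over all 11600 analysed genes the share at least 2-fold higher was 1.27% for Y-27632 and 1.79% for Mkl1 siRNA, and 0.707% in both. Since the genes were chosen with these values known, nothing is read from the members' share. Of the 16 gene probe sets, 8 passed the same filter, and 3 of these with Y-27632 and 2 with Mkl1 siRNA were at least 2-fold higher, against 1.04% and 1.59% of the 23863 probe sets past it. The Gpd1 set 1439396_x_at, counted with Y-27632, passed the filter only on the treated arrays, where it was high.

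**Figure D3:**
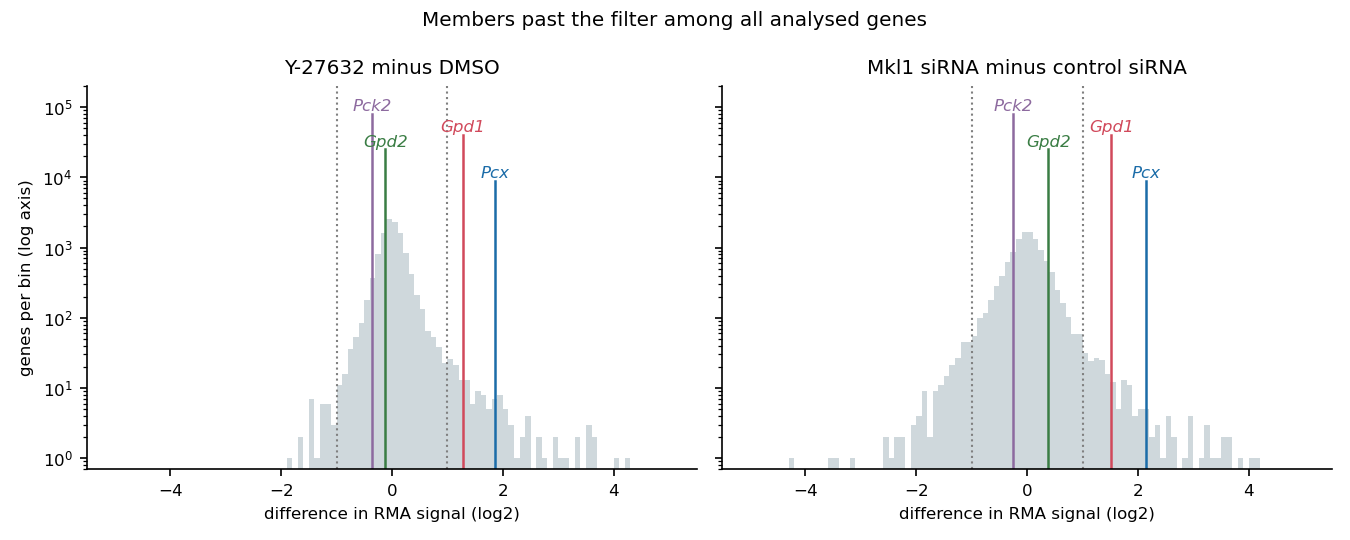
Number of analysed genes (log axis) by difference in RMA signal (log2, bins of 0.1) in each treatment comparison, with the 4 members past the filter as coloured lines, whose heights carry no value, and 2-fold as dotted lines. Pcx (1.86 and 2.14) and Gpd1 (1.28 and 1.52) lie in the sparse upper tail, and Gpd2 and Pck2 in the bulk.

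Both carboxykinases differed from Pcx. Pck1, the cytosolic enzyme, had low signals on all 4 arrays: its 3 probe sets at 2.56 to 4.30, below the median of all values. Their differences were -0.08 to 0.26 with Y-27632 and -0.38 to 0.30 with Mkl1 siRNA, at levels where RMA compresses ratios. Pck2, the mitochondrial enzyme, had a log2 signal of 11.36 with Y-27632, against 11.72 with DMSO, and 10.33 with Mkl1 siRNA, against 10.58 with Control siRNA (1425615_a_at), differences of -0.36 and -0.25. Its other probe set (1452620_at) had 8.25 with Y-27632, against 8.36 with DMSO, and 7.23 with Mkl1 siRNA, against 7.35 with Control siRNA, differences of -0.11 and -0.12.

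For Pck2 both arrays of transfected cells lay below the Y-27632 and DMSO arrays, on each probe set. Transfection and any other difference between these pairs of arrays cannot be told apart. Control siRNA minus DMSO was -1.14 and -1.02 on the 2 probe sets, past 2-fold in both, where 1.09% of all genes and 0.997% of probe sets past the filter were at least 2-fold lower. Only 85 of 11600 genes were as low or lower. The sign with Y-27632 therefore turned with the control: against Control siRNA the Pck2 difference was 0.78 for Y-27632, and against DMSO it was -1.39 for Mkl1 siRNA.

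Gpd2, the mitochondrial counterpart of Gpd1, had a log2 signal of 9.21 with Y-27632, against 9.33 with DMSO, and 9.69 with Mkl1 siRNA, against 9.31 with Control siRNA (1417434_at). The differences were -0.12 and 0.38. Its 4 probe sets ranged from -0.19 to 0.06 with Y-27632 and from 0.31 to 0.48 with Mkl1 siRNA, so all 4 were on the higher side with Mkl1 siRNA only. The difference between the treatments was not tested.

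Aqp7, the glycerol channel, had low signals throughout and did not pass the filter. On 1418848_at it had 5.02 with Y-27632, against 4.33 with DMSO, and 5.22 with Mkl1 siRNA, against 4.22 with Control siRNA, differences of 0.69 and 1.0 (1.61-fold and 2.01-fold). On 1418849_x_at it had 3.52 with Y-27632, against 2.80 with DMSO, and 3.59 with Mkl1 siRNA, against 3.13 with Control siRNA, differences of 0.72 and 0.46. Both treated arrays lay above both controls on each probe set, at levels where ratios may be understated.

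Fat cell markers moved with Pcx and Gpd1. Of 14 adipocyte markers past the filter, 11 were at least 2-fold higher with Y-27632 and 11 with Mkl1 siRNA, all 14 lay above 0 in both comparisons, and the medians were 2.0 and 1.90. Their median between the control arrays was -0.04. Adiponectin (Adipoq) differed by 3.55 and 3.83, the hormone-sensitive lipase Lipe by 2.60 and 2.97, and the transcription factor Pparg by 1.23 and 1.86. The other Lipe probe set did not share its difference (-0.16 and -0.25). The insulin-responsive glucose transporter Slc2a4 differed by 0.74 and 0.33, and by 0.27 and -0.09 on its other probe set. Lipoprotein lipase (Lpl) differed by 0.25 in both, and by 0.64 and 0.59 on its other probe set. The summed linear signal of the list was 58780 with Y-27632, against 25999 with DMSO, and 62998 with Mkl1 siRNA, against 26662 with Control siRNA. Of brown fat genes, Ucp1 lay at 4.30 or less, Cidea between 4.41 and 4.45, and Dio2 between 5.57 and 5.84. The fibroblast and preadipocyte list also differed with Mkl1 siRNA. There 0 of its 9 genes lay above 0, the median was -0.32, and 2 were at least 2-fold lower (Col1a1 at -1.05 and Cd34 at -1.82), against 1.74% of all genes. With Y-27632 6 of the 9 lay above 0, the median was 0.04, and Cd34 alone was past 2-fold, at 1.79. Of all genes, 1.27% were at least 2-fold higher there. Cd34 passed the filter only on the Y-27632 array, where it was high (6.36). Its signals with Mkl1 siRNA (3.53) and Control siRNA (5.36) both lay below the median of all values. The part of a shift in cell composition in the Pcx values was not tested.

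The genes whose profile over the 4 arrays was nearest to that of Pcx were found by root mean square distance between log2 profiles centred on their own means, among 11599 other genes. The nearest were Car5b, a mitochondrial carbonic anhydrase (distance 0.0989), and Slc36a2, a proton-coupled amino acid transporter (0.101). Slc25a10, the mitochondrial dicarboxylate carrier (0.120), Thrsp, a nuclear protein of lipogenic tissue (0.146), and Klb, a fibroblast growth factor co-receptor (0.154), followed. Slc36a2 and Klb passed the filter on the treated arrays only. Car5b had 8.48 with Y-27632, against 6.47 with DMSO, and 8.62 with Mkl1 siRNA, against 6.66 with Control siRNA, differences of 2.01 and 1.96. The 3 Thrsp probe sets disagreed, from 0.08 to 4.28 with Y-27632. Fabp4, the fatty acid carrier, was 18th in the order, Pparg 21st, Gpd1 32nd (distance 0.338) and Cebpa 49th, while Adipoq was 882nd, since its differences were larger. Gpd2 was 2341st and Pck2 11234th. With 4 points a profile, the order is a description of these arrays.

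**Figure D4:**
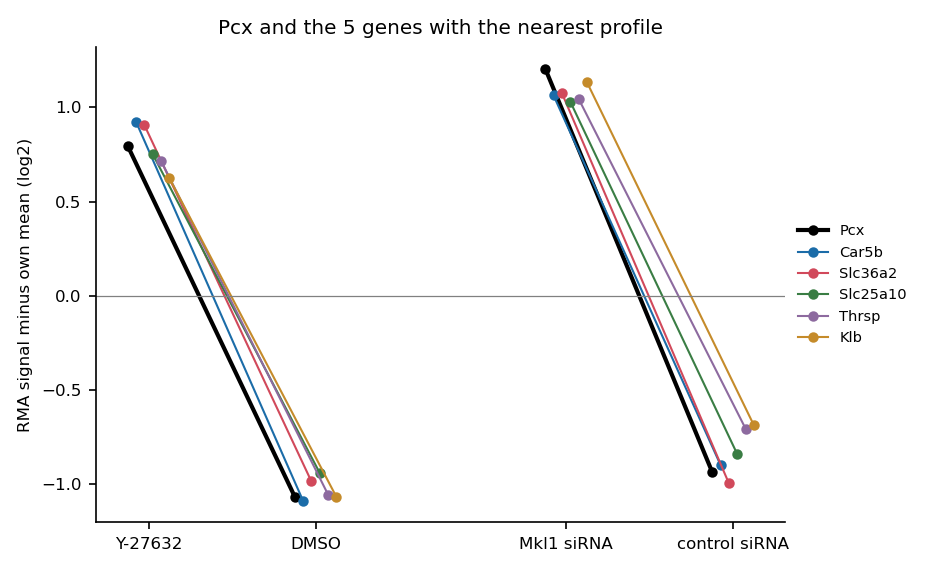
RMA signal minus each gene's own mean (log2) on the 4 arrays for Pcx (black) and the 5 genes with the nearest profile, joined within each treatment and control pair and set slightly apart for sight. All 6 are high with Y-27632 and Mkl1 siRNA and low with DMSO and Control siRNA, with distances of 0.0989 to 0.154 from Pcx.

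Most neighbours of Pcx in pyruvate metabolism differed little. Of 12 genes for pyruvate, malate and citrate handling, 1 was at least 2-fold higher in each comparison, the same gene in both (medians 0.21 and 0.08). Of all genes, 1.27% and 1.79% were. None of the 12 was at least 2-fold lower, against 0.224% of all genes with Y-27632 and the 1.74% given above with Mkl1 siRNA. The higher gene was Slc25a10, which exchanges malate or succinate for phosphate, with 9.48 with Y-27632, against 7.79 with DMSO, and 9.76 with Mkl1 siRNA, against 7.89 with Control siRNA. Its differences were 1.69 and 1.86, and its other probe set stood at 0.79 and 1.23. The pyruvate carrier subunit Mpc1 differed by 0.64 and 0.37 and the cytosolic malate dehydrogenase Mdh1 by 0.54 and 0.47. The 5 Mdh1 probe sets ran from 0.04 to 0.54 with Y-27632 and from -0.17 to 0.67 with Mkl1 siRNA. The malic enzyme Me3 differed by -0.58 and -0.79, beside -1.35 between the control arrays.

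The pyruvate dehydrogenase complex takes the same substrate as Pcx towards acetyl-CoA. None of its 11 subunits, kinases and phosphatases was at least 2-fold higher or lower, with medians of 0.24 and 0.33. The subunits Pdhb (0.32 and 0.78), Dlat (0.24 and 0.69), Pdhx (0.58 and 0.67) and Dld (0.55 and 0.64) were on the higher side in both comparisons. The other Dld probe set was so with Y-27632 only (0.20 and -0.10), and Pdha1 was so in neither (-0.10 and -0.17). The 7 genes past the filter for reversible steps of glycolysis and for gluconeogenic steps, from enolase to glucose 6-phosphatase (G6pc3), also had none past 2-fold (medians -0.00 and -0.19). Among them were the muscle enolase Eno3 at -0.61 and -0.19 and phosphoglycerate kinase Pgk1 at -0.08 and -0.33.

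Of 8 other genes for biotin enzymes and biotin handling, 8 lay above 0 with Y-27632 and 7 with Mkl1 siRNA, with medians of 0.19 and 0.45. In each comparison 1 was at least 2-fold higher, against 1.27% and 1.79% of all genes. This was the biotin and pantothenate transporter Slc5a6. It had 6.43 with Y-27632, against 5.36 with DMSO, and 6.84 with Mkl1 siRNA, against 5.70 with Control siRNA, differences of 1.07 and 1.15, and 0.73 for Y-27632 against Control siRNA. Hlcs, which attaches biotin to the carboxylases, differed by 0.14 and 0.99, the propionyl-CoA carboxylase subunit Pcca by 0.39 and 0.68, and acetyl-CoA carboxylase Acaca by 0.42 and 0.48. The other probe sets of Pcca (-0.40 and -0.17) and Acaca (-0.21 and 0.22) did not follow these in sign throughout.

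Of 7 other glycerol phosphate genes, 1 was at least 2-fold higher in each comparison (medians 0.03 and 0.32), against 1.27% and 1.79% of all genes. This was Gpat3, which adds the first fatty acid to glycerol 3-phosphate, at 1.96 and 3.57, while Control siRNA minus DMSO was -1.12. Gpat4, an enzyme of the same step, differed by 0.00 and 0.32, and the Gpd1 relative Gpd1l by 0.29 and 0.47. The water and glycerol channel family member Aqp11 differed by -0.07 and 0.69. It passed the filter only with Mkl1 siRNA, where it was high (6.15). Its 3 probe sets ran from -0.33 to 0.36 with Y-27632 and from 0.25 to 0.69 with Mkl1 siRNA. None of these 5 lists was past 2-fold on the higher side in more than 1 gene, whereas 11 of the 14 adipocyte markers were. The lists differ in size, and all were chosen with earlier results of these data known.

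**Figure D5:**
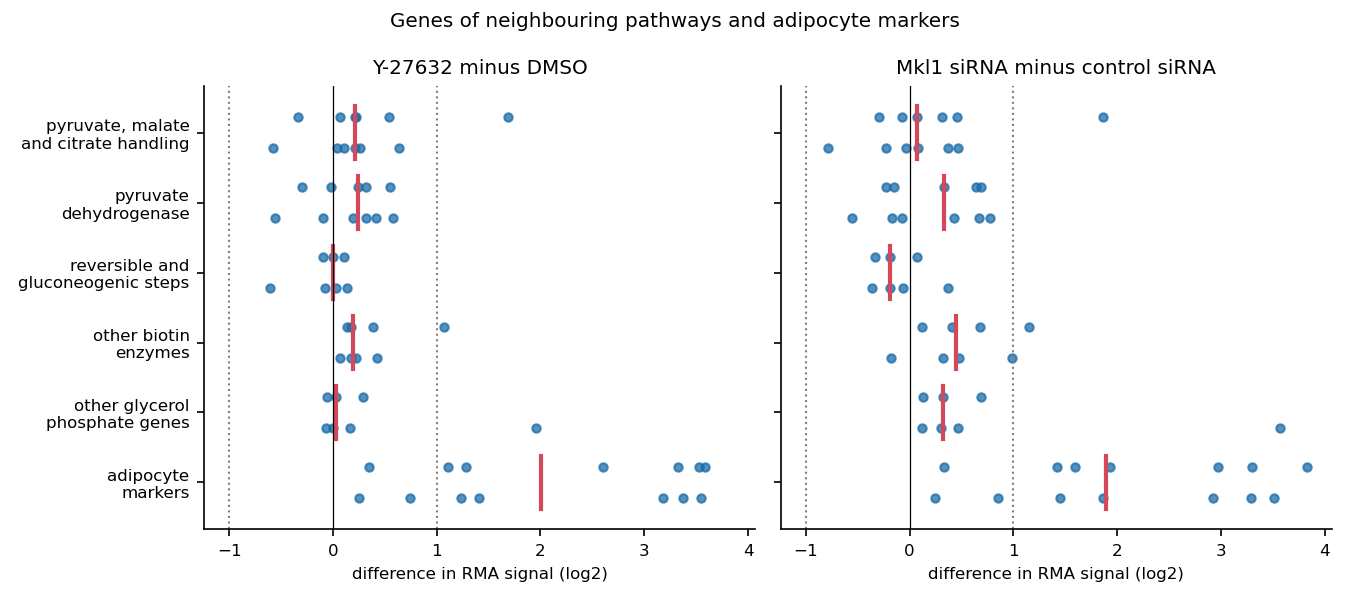
Difference in RMA signal (log2) of each gene past the filter in 5 neighbouring pathways and the adipocyte marker list, 1 point a gene, with the list median as a red bar and 2-fold as dotted lines. The adipocyte markers have medians of 2.0 and 1.90, and the pathway medians lie between -0.19 and 0.45.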

How the data were processed

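Each of the 4 groups had 1 array. The deposited table holds 1 log2 signal for each probe set and array, which the authors made with RMA per the submitters' processing notes. Its version is not given in the sources used here. That the scale is log2 follows from the range, 2.02 to 14.6. RMA equalises array distributions, hides differences in total RNA and compresses weak ratios. The number of arrays limits the precision.

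Names came from the platform annotation (34958 of 45101 probe sets had 1 symbol), with symbols updated through RefSeq, and the 64 control probe sets were kept out of gene values. A gene took the probe set with the highest mean, and 11600 of 18193 genes with an array at or above the median of all values (5.69) were analysed. A gene could thus pass through a treated array alone. Differences are treated minus control, counted from 2-fold. No test, interval or leave-one-out was possible. Named genes were all members, the control transcripts, the 5 nearest profiles and up to 4 genes a list by largest difference. Further genes named (Slc2a4, Lpl, Lipe, Pparg, Fabp4, Cebpa, Cidec, Pdha1, Ucp1, Cidea and the marker genes of the cell check) were picked from the lists after their values were seen. Members and lists were chosen with earlier results of these data known. Alternatives were the mean of probe sets, leaving out ambiguous probe sets, no or a stricter filter, median or loess scaling, other thresholds, middle probe sets and the other control array. Calculations used Python 3.11.15, pandas 2.3.3 and statsmodels 0.14.6 and were tested on simulated data.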

Additional observations from a re-analysis of the deposited data

How the results depend on the processing

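On its gene probe set, the Pcx difference kept its direction and stayed past 2-fold under every alternative run. It ran from 1.73 to 1.88 with Y-27632 and from 2.11 to 2.27 with Mkl1 siRNA. Pcx has 1 gene probe set, itself of the kind that may read several transcripts of a gene, and it was kept when such sets were left out of other genes, so the choice of probe set could not move it. The count of members at least 2-fold higher was 1 in place of 2, in both comparisons, with the mean of all probe sets and with a filter at the 75th percentile (8.08). It was also 1 with Y-27632 when the threshold was the 99th percentile of the control difference (1.32). In each case Gpd1 was the gene lost, by averaging over its weak probe sets, by its level, or by its difference of 1.28. Without a filter Aqp7 made the count 3 with Mkl1 siRNA. With the middle control probe sets in place of the 5′ one, the 3′ difference of pyruvate carboxylase exceeded theirs by 1.32 with Y-27632 and 1.51 with Mkl1 siRNA. Of the alternatives for other members and for lists, added after seeing the data, 14 moved and 146 did not. No paired analysis was possible because each group had 1 array.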

Other observations

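The genes with a gap between probe sets as wide as that of the pyruvate carboxylase ends were Thrsp, Lgals12, Egr3, Sh2b2 and Inhbb with Y-27632, and Thrsp, Lgals12, Car3, Apcdd1, Mmd and Asph with Mkl1 siRNA. The Thrsp gap was 4.20 and 5.12, and that of the fat cell galectin Lgals12 was 2.44 and 3.31. Both were named after their values were seen.

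In the pathway lists, Control siRNA lay at least 2-fold under DMSO for 4 genes, beside the member Pck2 at -1.14. They were Me3 at -1.35, Gpat3 at -1.12, the pyruvate dehydrogenase kinase Pdk1 at -1.10 and Eno3 at -1.03. Against Control siRNA, Pdk1 was higher by 1.29 with Y-27632, and against DMSO it differed by -1.65 with Mkl1 siRNA.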
